A study of Rattus norvegicus with 61 samples.

Results

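Transcripts of 10 genes of the heat shock response and of the endoplasmic reticulum (ER) stress response were followed in 2 brain regions of male adolescent rats. The genes were taken by name from a list, and their rows were found by NCBI Gene ID among the 14471 genes that have a row in either deposited count table. They are Hsph1 (Gene ID 288444), Hspa8 (24468), Hsp90aa1 (299331) and Dnajb1 (361384), which act in the cytosol, Hspa5 (25617), Dnajb9 (24908) and Herpud1 (85430), which act at the ER, and the transcription factors Xbp1 (289754), Atf4 (79255) and Ddit3 (29467). All 10 had enough reads to be tested in both regions. The lowest count of any of them in a library was 146 reads (Ddit3) in the striatum and 114 reads (Dnajb9) in the cerebellum.

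The series asks how exposure to 4-OH-PCB52, which the body makes from a polychlorinated biphenyl by adding a hydroxyl group, alters RNA levels in the striatum and the cerebellum. Sprague-Dawley males received a subcutaneous implant on postnatal day 28 and carried it for 28 days. Its loading was 0% in the sham group, 1% in the low group, 5% in the medium group and 10% in the high group, and no animal went without an implant. From sham to high there were 8, 6, 8 and 8 libraries of striatum and 7, 8, 8 and 8 of cerebellum. The 3 loadings of a region are set against the same sham libraries, so their differences are not independent. RNA came from tissue punches, so a transcript made by fewer cells and a transcript made at a lower level per cell cannot be told apart.

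Striatal libraries held 5850199 to 10944066 reads in genes, and cerebellar ones 5420458 to 10994625. Marker genes separated the regions. Over a list of striatal projection neuron genes the mean log2 CPM (CPM is reads of a gene scaled to a common library total) was 4.34 to 8.66 in striatal libraries and 2.80 to 4.18 in cerebellar ones. Over a list of cerebellar granule cell genes it was 4.06 to 9.17 in cerebellar libraries and 3.52 to 6.48 in striatal ones. Some libraries stood apart within their region, by more than 1 log2 unit from the region's median in the mean of ribosomal protein genes or of the region's own neuron genes. From sham to high, these numbered 2, 1, 2 and 3 of the 30 striatal libraries and 1, 2, 4 and 3 of the 31 cerebellar ones. Results that rest on them are given with and without them, and libraries are named by the number in their label, taken here as the animal.

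Molecular chaperones keep proteins folded. In the cytosol the Hsp70 protein Hspa8 binds unfolded segments, the J-domain protein Dnajb1 starts its ATP cycle, the Hsp110 protein Hsph1 releases its ADP, and Hsp90aa1 takes over signalling proteins late in folding. Heat shock factor 1, released when unfolded protein builds up, binds heat shock elements in the promoters of such genes. In the ER the Hsp70 protein Hspa5 (BiP) does the same work with J-domain partners such as Dnajb9, and also holds the stress sensors in check. When unfolded protein draws Hspa5 away, Xbp1 messenger RNA is spliced to make an active factor, Atf6 is cut free, and translation of Atf4 rises, which in turn raises Ddit3 (CHOP). Herpud1 sits in the ER membrane and helps to pass misfolded proteins to the proteasome. Counts per gene show the amount of Xbp1 messenger RNA, not its splicing, and show nothing of Atf4 translation.

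Promoter sequences are printed for 5 of the genes, since they carry the elements through which the heat shock and ER stress pathways are known to act. RefSeq promoters of the rat build GRCr8, which differs from the build of the counts, were found for 9 of the 10 genes, all but Hsp90aa1. The 250 bases before each start site were searched on both strands. The heat shock element was searched as GAA, TTC and GAA with any 2 bases between neighbours, which stands in 0.663% of 33469 promoters, and was found in 2 of the 9 genes. In the Hsph1 promoter it lies 36 to 24 bases before the start site (chr12:10427312-10427364, plus strand), and in the Hspa8 promoter it occurs at 213 to 201 bases (chr8:50080281-50080333, plus strand) and at 55 to 43 bases (chr8:50080439-50080491, plus strand). The windows are written 5′ to 3′ on the gene's strand with 20 bases on each side, and capitals mark the match, which on the other strand reads as its reverse complement.
Hsph1: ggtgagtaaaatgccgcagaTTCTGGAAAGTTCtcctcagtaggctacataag
Hspa8, far element: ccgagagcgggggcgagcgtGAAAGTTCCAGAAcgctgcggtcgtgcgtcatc
Hspa8, near element: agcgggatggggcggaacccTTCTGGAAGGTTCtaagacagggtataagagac

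The ER stress response element, CCAAT and CCACG with any 9 bases between them, stands in 0.0657% of the same promoters and was found in Hspa5 and Xbp1. It lies 43 to 25 bases before the Hspa5 start site (chr3:38452953-38453011, plus strand) and 65 to 47 bases before that of Xbp1 (chr14:84604538-84604596, plus strand). Its shorter relative, ATTGG and CCACG with any 1 base between them, stands in 0.0418% and was found in Herpud1, at 124 to 114 bases (chr19:10614801-10614851, minus strand). The motif TGATGNAA, a composite site for C/EBP and ATF factors, stands in 3.4% and was found in Herpud1 alone, and TGACGTGG, bound by spliced Xbp1, stands in 0.520% and in none of the 9. A match is a run of letters, and binding was not measured.
Hspa5: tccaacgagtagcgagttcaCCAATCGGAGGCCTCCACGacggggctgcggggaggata
Xbp1: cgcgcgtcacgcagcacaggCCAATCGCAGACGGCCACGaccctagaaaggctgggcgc
Herpud1: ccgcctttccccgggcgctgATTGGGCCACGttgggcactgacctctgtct

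Implants loaded with 4-OH-PCB52 were not followed by a change of any of the 10 transcripts that passed the test. With edgeR's quasi-likelihood test and Benjamini-Hochberg adjustment over all genes, 0 of 10 passed an adjusted p of 0.05 at the low, medium or high loading or in the linear trend with loading, in either region, where 0% of all genes tested passed. In the test of any difference among the groups 0 of 10 passed as well, against 0.0245% of genes in the striatum and 0% in the cerebellum. At an unadjusted p under 0.05 the striatum had 0, 1 and 0 of 10 for the low, medium and high loading, against 3.84, 3.69 and 1.15% of all genes. The cerebellum had 0, 1 and 3 of 10, against 1.52, 1.42 and 11.7%. For any difference the counts were 0 of 10 (2.02% of genes) in the striatum and 3 of 10 (10.3%) in the cerebellum, and for the trend 0 (0.97%) and 3 (20.6%). DESeq2 and limma-voom had 0 of 10 as well in these tests, except that DESeq2 had 3 (Xbp1, Atf4 and Ddit3) in the cerebellar trend. No exposed group lay wholly above or below its sham group for any of the 10 genes. That holds of 0.0734, 0.0245 and 0% of genes in the striatum and 0, 0 and 0.0167% in the cerebellum.

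**Figure D1:**
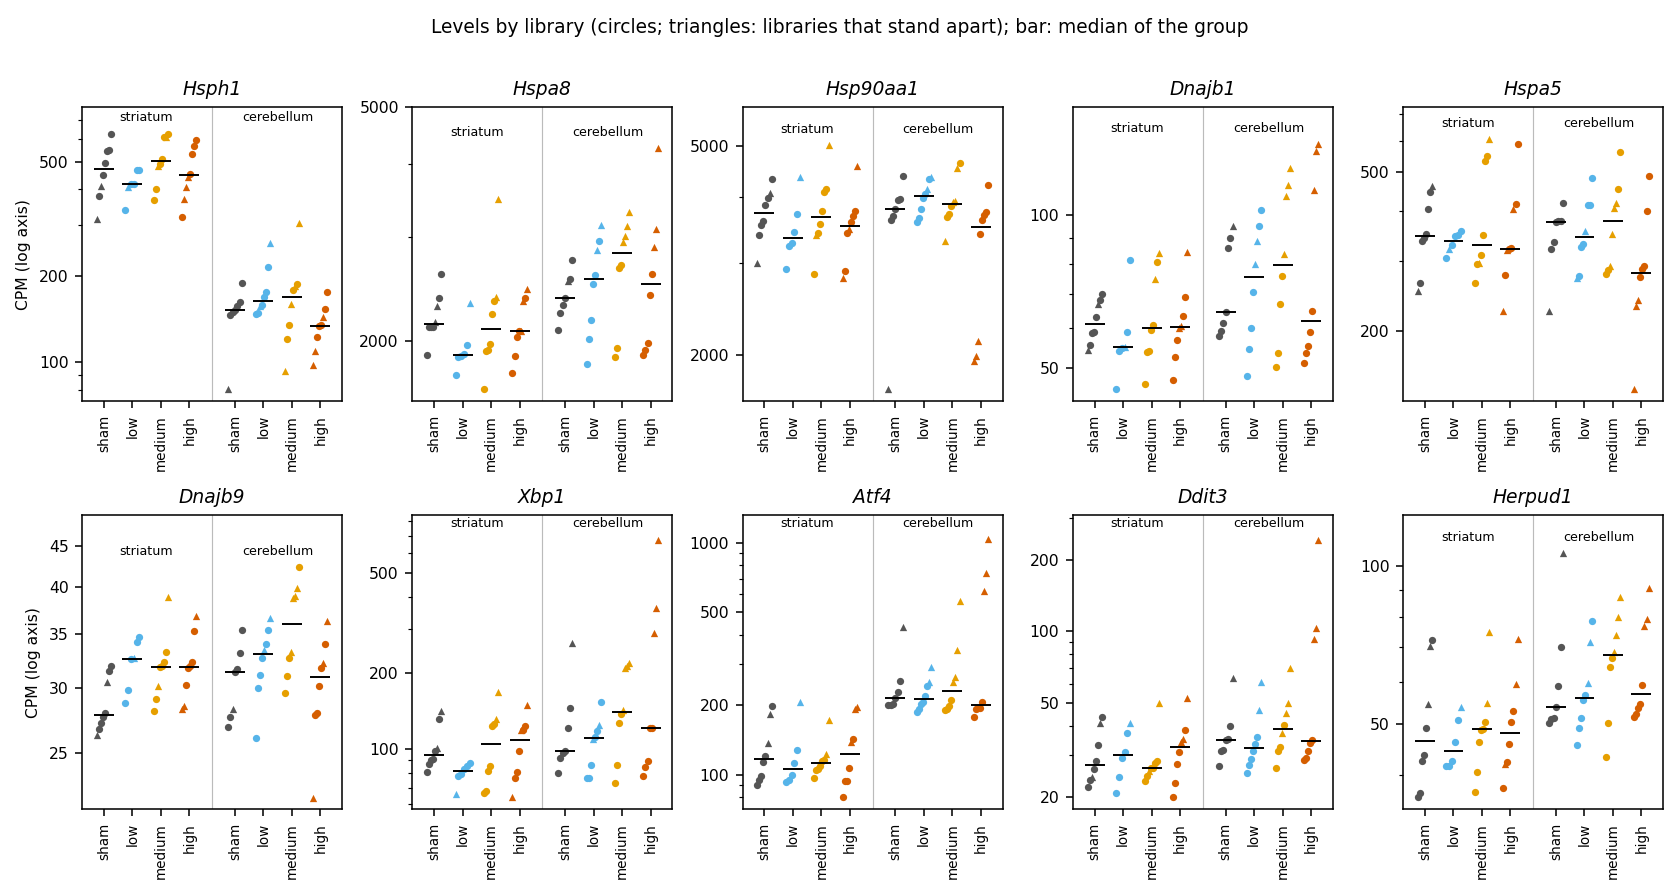
Level of each of the 10 transcripts in every library (points; CPM on a log axis) by region and implant loading, with a bar at the group median and triangles for libraries that stood apart. The groups overlap for every gene within a region, while Hsph1 lies higher in the striatum and Atf4 higher in the cerebellum.

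Hsp90aa1, the chaperone of signalling proteins, varied little between striatal groups. Hsp90aa1 ran from 2999 to 4324 CPM in sham striatum (median 3731), 2919 to 4363 at the low (3346), 2858 to 5027 at the medium (3657) and 2801 to 4584 at the high loading (3529). The groups covered nearly the same range. Against sham its log2 changes were -0.10 ± 0.12 (SE), 0.02 ± 0.12 and -0.08 ± 0.12 at the 3 loadings. The 95% intervals of these changes reached from -0.35 to 0.26 in all.

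For the Hsp70 protein Hspa8, striatal levels were 1891, 2130 and 2600 CPM (lowest, median, highest) in sham, 1743, 1892 and 2321 at the low, 1651, 2096 and 3483 at the medium and 1759, 2074 and 2450 at the high loading. One medium library, from animal 41, stood above the rest. Its log2 changes were -0.18 ± 0.13, 0.02 ± 0.12 and -0.06 ± 0.12. Hsph1, the exchange factor, had medians of 473 CPM in sham, 418 at the low, 501 at the medium and 448 at the high loading, within a range of 315 to 624 over all 30 striatal libraries. Dnajb1, the J-domain partner, had medians of 60.9, 54.9, 60.03 and 60.2 CPM within 45.4 to 84.6. Changes of both genes in the striatum were between -0.17 and 0.12 in log2.

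In the cerebellum the exposed and sham groups overlapped for all 4 cytosolic chaperones too. Hsp90aa1 ran from 1718 to 4385 CPM in sham (median 3803), 3582 to 4362 at the low (4018), 3292 to 4638 at the medium (3880) and 1947 to 4212 at the high loading (3504). The lowest sham library (animal 48) and the lowest high library (animal 43) were both among those with high ribosomal protein transcripts. Hspa8 reached 4259 CPM in that same high library, against a high median of 2493 and a sham range of 2083 to 2746. Its lowest cerebellar value was 1822 CPM, at the low loading.

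Hsph1 had cerebellar medians of 152 CPM in sham, 163 at the low, 169 at the medium and 134 at the high loading, within 80.9 to 306. Dnajb1 had medians of 64.5, 75.3, 79.7 and 61.8 CPM within 48.1 to 138. Log2 changes of these 4 genes in the cerebellum were between -0.20 (Hsp90aa1, high) and 0.29 (Hsph1, low), with standard errors of 0.18 to 0.25. None exceeded the spread between libraries.

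Hspa5, the ER's Hsp70, did not differ between loadings beyond the spread of libraries. In the striatum its lowest, median and highest values were 251, 346 and 461 CPM in sham, 304, 337 and 355 at the low, 263, 329 and 606 at the medium and 224, 322 and 591 at the high loading. The sham and exposed ranges overlapped throughout, with log2 changes of -0.10 ± 0.20, 0.17 ± 0.18 and 0.01 ± 0.18. In the cerebellum the values were 225, 376 and 419 CPM in sham, 271, 343 and 485 at the low, 278, 378 and 564 at the medium and 143, 279 and 489 at the high loading. The lowest high library was that of animal 28, which stood apart, and the changes were 0.06 ± 0.20, 0.14 ± 0.20 and -0.22 ± 0.20.

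Dnajb9, the J-domain partner of Hspa5, lay slightly higher in all exposed striatal groups than in sham without passing the test. It stood at 26.3, 27.8 and 32 CPM (lowest, median, highest) in sham, 28.8, 32.7 and 34.7 at the low, 28.1, 31.9 and 38.9 at the medium and 28.3, 31.9 and 36.9 at the high loading. The low median lay just above the sham range and the medium and high medians near its top, and every exposed group overlapped it. The log2 changes were 0.16 ± 0.08, 0.16 ± 0.08 and 0.15 ± 0.08 (unadjusted p = 0.055, 0.045 and 0.056, edgeR adjusted p of 0.905 for the low loading and 1.00 for the others). Over the other ways of processing the data these changes ran from 0.13 to 0.19, 0.11 to 0.18 and 0.12 to 0.17.

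Dnajb9 also had the smallest spread of the 10 in the striatum. Its standard deviation within exposure groups was 0.125 log2 units, smaller than in all but 1.80% of the genes tested there, and 0.182 in the cerebellum (3.30%). In the cerebellum its medians were 31.5 CPM in sham, 33.1 at the low, 36.0 at the medium and 31 at the high loading. The medium change was 0.23 ± 0.11 (unadjusted p = 0.049, adjusted p = 0.999 by edgeR), and the high change was 0.01 ± 0.11.

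Herpud1, the ER membrane protein of protein disposal, had striatal medians of 46.3, 44.3, 48.8 and 48.1 CPM from sham to high, within 36.2 to 74.7. In the cerebellum the medians were 53.8, 56.1, 67.6 and 56.9 CPM within 43.1 to 106, the highest value being a sham library. Its log2 changes lay between -0.14 and 0.08 over both regions.

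**Figure D2:**
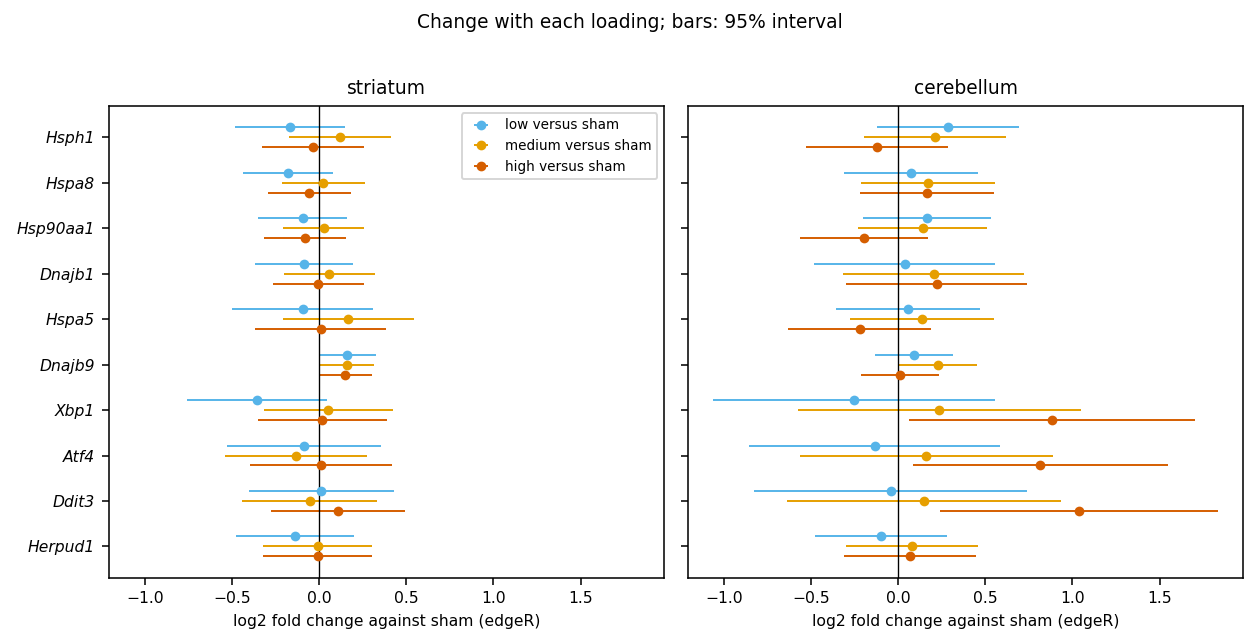
Log2 change of each of the 10 transcripts against sham (points, with 95% intervals from the edgeR fit) for the low, medium and high loading in striatum and cerebellum. Most intervals cross 0, and the widest are those of Xbp1, Atf4 and Ddit3 in the cerebellum, whose high points lie between 0.81 and 1.04.

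In the striatum, the transcription factors did not differ between exposed and sham groups beyond the spread of libraries. Xbp1 ran through 81.0, 94.4 and 140 CPM (lowest, median, highest) in sham, 65.9, 81.2 and 87.7 at the low, 66.6, 104 and 167 at the medium and 64.4, 109 and 149 at the high loading. The low group overlapped only the lower end of the sham range and reached below it, with a log2 change of -0.36 ± 0.20 (unadjusted p = 0.080). This was the largest striatal change among the 10 genes. Atf4 had medians of 117, 106, 112 and 122 CPM from sham to high, within 80.6 to 206, and Ddit3, its target, 27.3, 30.1, 26.6 and 32.6 CPM within 20.1 to 52.2. Their changes lay between -0.13 and 0.11.

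In the cerebellum at the high loading, Xbp1, Atf4 and Ddit3 had the largest fitted differences of the 10 genes, and these rested on 3 of 8 libraries. Xbp1 ran through 80.0, 97.5 and 262 CPM (lowest, median, highest) in sham, 76.1, 110 and 153 at the low, 72.8, 140 and 218 at the medium and 77.8, 121 and 672 at the high loading. Within the high group, the libraries of animals 28, 43 and 59 held 289, 672 and 361 CPM, and the other 5 lay between 77.8 and 121. The lowest of those 5 (animal 13) lay just below the sham range, and the others were inside it.

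Atf4 stood at 199, 215 and 432 CPM in sham, 186, 212 and 290 at the low, 190, 230 and 558 at the medium and 178, 199 and 1032 at the high loading. The same 3 high libraries held 740, 1032 and 621 CPM and the other 5 held 178 to 205, so that the high median was below the sham median. Ddit3 stood at 26.9, 34.9 and 63.4 CPM in sham, 25.2, 32.3 and 60.9 at the low, 26.6, 38.8 and 70.0 at the medium and 28.7, 34.3 and 243 at the high loading. It reached 103, 243 and 92.4 CPM in those 3 libraries and 28.7 to 35 in the others. High libraries were thus split for all 3 genes in the same way.

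Fitted over all libraries, the high versus sham log2 changes were 0.88 ± 0.40 for Xbp1 (95% interval 0.06 to 1.70), 0.81 ± 0.36 for Atf4 (0.08 to 1.55) and 1.04 ± 0.39 for Ddit3 (0.24 to 1.84). Their unadjusted p values were 0.037, 0.031 and 0.013, and the edgeR adjusted p was 0.417 for each. The 3 high libraries were among those that stood apart, with a mean of 10.7 to 12.1 log2 CPM over ribosomal protein genes against 7.29 to 7.41 in the other 5. All 76 ribosomal protein genes tested had a higher fitted level in the high group, with a median log2 change of 1.79. At the low loading 0 of the 76 were higher (median -0.44), and at the medium loading 73 (0.10).

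Without the libraries that stood apart, the high changes were -0.08 for Xbp1, -0.14 for Atf4 and -0.05 for Ddit3. With weights for library quality (limma-voom) they were -0.07, -0.10 and -0.02, and leaving out the library of animal 43 alone gave 0.36, 0.44 and 0.43. The same libraries carried the linear trend. Per 10 percentage points of loading it was 1.02 ± 0.33 for Xbp1, 0.89 ± 0.30 for Atf4 and 1.06 ± 0.32 for Ddit3, with adjusted p = 0.080, 0.084 and 0.076 (edgeR), and without the libraries that stood apart -0.07, -0.14 and -0.00.

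**Figure D3:**
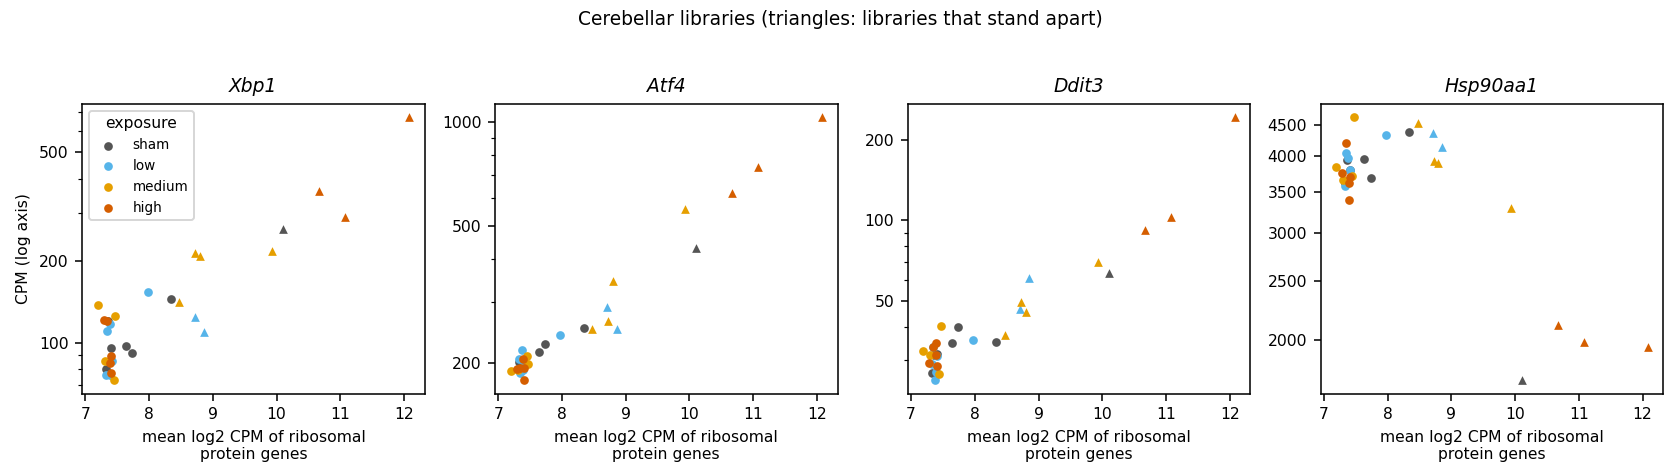
Cerebellar level (CPM, log axis) of Xbp1, Atf4, Ddit3 and Hsp90aa1 in each library against that library's mean log2 CPM over ribosomal protein genes, coloured by loading. The 3 high libraries at 10.7 to 12.1 on the horizontal axis hold the highest Xbp1, Atf4 and Ddit3 values, and sham library 48, at 10.1, holds the lowest Hsp90aa1 value of 1718.

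Among all 10 cerebellar libraries that stood apart, Atf4 lay between 251 and 1032 CPM (median 389), and among the other 21 between 178 and 253 (median 200). Ddit3 lay between 37.4 and 243 against 25.2 to 40.3, and Xbp1 between 110 and 672 against 72.8 to 153. Hspa5 went the other way, with 143 to 420 CPM (median 281) against 272 to 564 (median 376). These are descriptions of libraries chosen by other genes. What part the ribosomal and neuron transcripts had in the levels of the 10 genes was not tested.

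Spread within exposure groups changed with these libraries. In the cerebellum the standard deviation of log2 levels was 0.646 for Atf4, at the 53.3 percentile of the genes tested, and 0.114 without the libraries that stood apart (9.29 percentile). For Ddit3 it was 0.686 and 0.187, and for Xbp1 0.739 and 0.360. Xbp1, Hspa5 (0.330) and Dnajb1 (0.312) then lay above 72.5% or more of all genes in spread, where the median gene had 0.220. Hsp90aa1 (0.116) then had a spread close to that of Atf4.

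Differences between regions in the response were tested as an interaction, striatal change minus cerebellar change. None of the 10 genes passed at the low or medium loading, where 0% of genes did, or at the high loading, where 0.00793% did. For Xbp1, Atf4 and Ddit3 the high interaction was -0.87 ± 0.43, -0.81 ± 0.40 and -0.93 ± 0.42, with an edgeR adjusted p of 0.591 for each. At an unadjusted p under 0.05 the 3 loadings had 0, 0 and 3 of 10 genes, against 2.31, 3.58 and 8.05% of all genes. This joint fit treated the striatal and cerebellar libraries of an animal as independent. With the animal as a block the counts were 1, 0 and 0 of 10 genes, and the share of all genes was not counted. The high interactions of Xbp1, Atf4 and Ddit3 were then nearer to no difference, as given in the last section.

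Over the 10 genes the median log2 change in the striatum was -0.10 at the low loading (2 higher, 8 lower than sham), 0.04 at the medium (7 and 3) and 0.00 at the high loading (5 and 5). In the cerebellum it was 0.05 (6 and 4), 0.17 (10 and 0) and 0.12 (7 and 3). The cerebellar medium values all lay between 0.08 and 0.24 and none passed the test by itself. Of the libraries behind them, 4 of 8 medium and 1 of 7 sham ones stood apart. With 1 library left out, the medium change of Atf4 ran from -0.071 to 0.36 and that of Ddit3 from -0.0044 to 0.33. The other genes kept a positive change with 1 library left out, which does not remove the libraries that stood apart together. Without all of those, 0 of 10 genes passed and 0 had an unadjusted p under 0.05 by edgeR. The signs of the changes in that fit are not given here. The 10 genes share libraries and part of them varied together, so they are not independent of each other.

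A wider list of 49 other cytosolic chaperones, co-chaperones and heat shock genes and one of 67 other genes of the ER stress response were read in the same fits. No gene of either list passed at any loading. Of 48 tested heat shock genes, 12, 30 and 18 were fitted higher than sham in the striatum at the low, medium and high loading (medians -0.11, 0.02 and -0.02), and 27, 38 and 25 in the cerebellum (0.04, 0.09 and 0.02). Of the ER stress genes tested, 32, 36 and 34 of 63 were fitted higher in the striatum (0.01, 0.02 and 0.02) and 27, 34 and 28 of 64 in the cerebellum (-0.03, 0.02 and -0.06).

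The smallest p values of the wider lists in the cerebellum at the high loading belonged to Hspe1, the mitochondrial co-chaperonin (1.57 ± 0.63), Hsbp1, a small binding protein of heat shock factor 1 (1.02 ± 0.44), and the ER stress genes Manf (1.52 ± 0.59) and Sdf2l1 (1.5 ± 0.58). Each had an edgeR adjusted p of 0.417. Without the libraries that stood apart the 4 changes were -0.32, -0.21, -0.27 and -0.25. In the striatum at the medium loading Cebpg, a partner of Atf4, stood at 0.29 ± 0.09 (unadjusted p = 0.0031, edgeR adjusted p = 1.00), and at 0.27 without the libraries that stood apart. Wfs1, which encodes the ER membrane protein wolframin and marks forebrain neurons, stood at 1.69 ± 0.63 in the cerebellum at the medium loading (unadjusted p = 0.012) and at -0.58 ± 0.28 in the striatum. Without the libraries that stood apart these were -0.20 and -0.68. Striatal neuron genes in medium cerebellar libraries had a mean of 3.10 to 4.17 log2 CPM against 2.80 to 3.60 in sham ones, and their part in the Wfs1 values was not tested.

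Between regions without exposure, 2 of the 10 genes differed. Hsph1, the Hsp110 exchange factor, was higher in the striatum, and Atf4, the factor of the integrated stress response, was higher in the cerebellum. This comparison of sham libraries had 43% of all genes past the edgeR test (20.9% higher and 22.1% lower in the striatum), so 2 of 10 is a smaller share than among all genes. Both genes' groups also did not overlap, as was true of 17.5% of genes. The test came from the same joint fit, which did not pair the regions of an animal.

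Scaled jointly over both regions, Hsph1 stood at 465.8 ± 103 CPM (SD, n = 8, 303 to 627) in sham striatum and 150 ± 34 CPM (n = 7, 82.0 to 194) in sham cerebellum. Every sham striatal library lay above every sham cerebellar one. The log2 difference was 1.64 ± 0.18 (SE), with an edgeR adjusted p of 1.2e-10. In all 29 animals with both regions, Hsph1 was higher in the striatum, by 1.54 ± 0.42 log2 units (SD).

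Atf4 stood at 128 ± 41 CPM (88.7 to 198) in sham striatum and 250 ± 85 CPM (202 to 438) in sham cerebellum, again with no overlap. Its log2 difference was -0.96 ± 0.29, with an edgeR adjusted p of 0.0053, and it was lower in the striatum in 29 of 29 animals. The other 8 genes did not pass. Hsp90aa1 (0.02, 95% interval -0.27 to 0.32) and Hspa5 (0.01, -0.39 to 0.40) had fitted differences near 0, and both turned negative without the libraries that stood apart (-0.08 and -0.08).

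Dnajb9 (-0.13, -0.30 to 0.05) had the narrowest interval of the 10 genes, and that of Hspa8 (-0.15, -0.44 to 0.14) was wider. Dnajb1 differed by -0.28 ± 0.20, Xbp1 by -0.35 ± 0.31 and Ddit3 by -0.34 ± 0.30. Herpud1 differed by -0.35 ± 0.17 (adjusted p = 0.090 by edgeR). It passed at -0.37 with the animal as a block and at -0.30 without the libraries that stood apart, and also when the striatal sham library of animal 48 (-0.44) or of animal 17 (-0.43) was left out. Over 29 animals the striatal value was the higher one in 3 for Herpud1, 3 for Xbp1, 4 for Hspa8, 6 for Dnajb1, 7 for Ddit3, 10 for Dnajb9, 11 for Hsp90aa1 and 15 for Hspa5.

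In the wider lists, 8 of 48 heat shock genes were higher and 9 lower in sham striatum (median log2 difference -0.03, all genes -0.09). Among all genes 20.9% were higher and 22.1% lower. Higher ones included Fkbp5, a co-chaperone of steroid receptors (1.43 ± 0.23), and Hsp90ab1, the constitutive Hsp90 (0.37 ± 0.10). Lower ones included Hspb6, a small heat shock protein (-1.68 ± 0.17), Fkbp4 (-1.15 ± 0.13) and Hsf1, which encodes heat shock factor 1 itself (-0.64 ± 0.10). Of 64 ER stress genes 5 were higher and 16 lower (median -0.17), against the same shares of all genes. Higher were Wfs1 (2.80 ± 0.53) and the serine synthesis enzyme Psat1 (2.24 ± 0.34), and lower were the translocon subunit Sec61a1 (-0.62 ± 0.10) and the Atf4 target Aars1 (-0.84 ± 0.17).

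Part of the 10 genes varied together from library to library within a region. To see this, each library's deviation from its exposure group's mean log2 CPM was correlated for the 45 pairs of genes, with permutation within exposure groups and adjustment over the 45 pairs. In the cerebellum without the libraries that stood apart (21 libraries), 27 of 45 pairs had a Spearman rho of 0.5 or more, against 6.82% of all pairs of genes. The median rho was 0.60 over the 45 pairs and 0.00 over all pairs of genes, and 25 pairs passed the permutation test, all of them positive.

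The closest pair there was a cytosolic chaperone and a transcription factor. Hspa8 and Xbp1 had a rho of 0.95 and a Pearson r of 0.96 (permutation p = 1e-05 for each, the smallest that 100000 permutations can give, r = 0.95 without the 2 farthest libraries). Hspa8 and Hspa5 had 0.93 and 0.94 with the same p, and 0.92 without the 2 farthest. Hsph1 and Hspa5 had a rho of 0.91 and an r of 0.86 (permutation p = 3e-05 and 0.00014, r = 0.88 without the 2 farthest). With only exposure group means removed, Atf4 stood outside this group, with a rho between -0.23 and 0.34 with the other 9.

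Part of this shared variation went with the order of animal numbers. The rats came in 4 cohorts 3 weeks apart, the labels give no cohort for a rat, and runs of 15 animal numbers were used in their place. With the mean of each run also removed, the rho of Hspa8 and Xbp1 was 0.89, that of Hspa8 and Hspa5 0.87 and that of Hsph1 and Hspa5 0.58. The number of cerebellar pairs past the test was again 25. The pairs of Atf4 are not given with run means removed, so whether it then stays outside the group is not shown. Over all 31 cerebellar libraries 19 pairs had a rho of 0.5 or more, a lower share than in the reduced set, but 27.4% of all gene pairs did so there too.

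In the striatum without the libraries that stood apart (22 libraries), 14 of 45 pairs reached a rho of 0.5, against 7.66% of all pairs, and 12 passed the permutation test. Hsph1 and Hsp90aa1 had a rho of 0.88 and an r of 0.82 (permutation p = 1e-05 and 7e-05, r = 0.84 without the 2 farthest). Atf4 and Ddit3 had 0.87 and 0.89 (permutation p = 2e-05 and 1e-05, r = 0.84 without the 2 farthest), against 0.34 and 0.33 in the cerebellum (p = 0.16 and 0.18). Whether this correlation differs between the regions was not tested.

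Xbp1 and Herpud1 had a rho of 0.83 and an r of 0.74 in the striatum (permutation p = 2e-05 and 7e-05, r = 0.78 without the 2 farthest). Hsph1 ran against the Atf4 pair there, with a rho of -0.56 with Atf4 and -0.57 with Ddit3 (r of -0.71 and -0.69, permutation p from 0.00033 to 0.0088, r of -0.65 and -0.66 without the 2 farthest). These 2 were the only negative pairs past the test in that set. With run means removed, 10 striatal pairs passed, 7 of them positive. The median rho over the 45 pairs was then 0.22, against 0.38 before. Over all 30 striatal libraries 13 pairs reached a rho of 0.5, against 11.2% of all gene pairs.

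**Figure D4:**
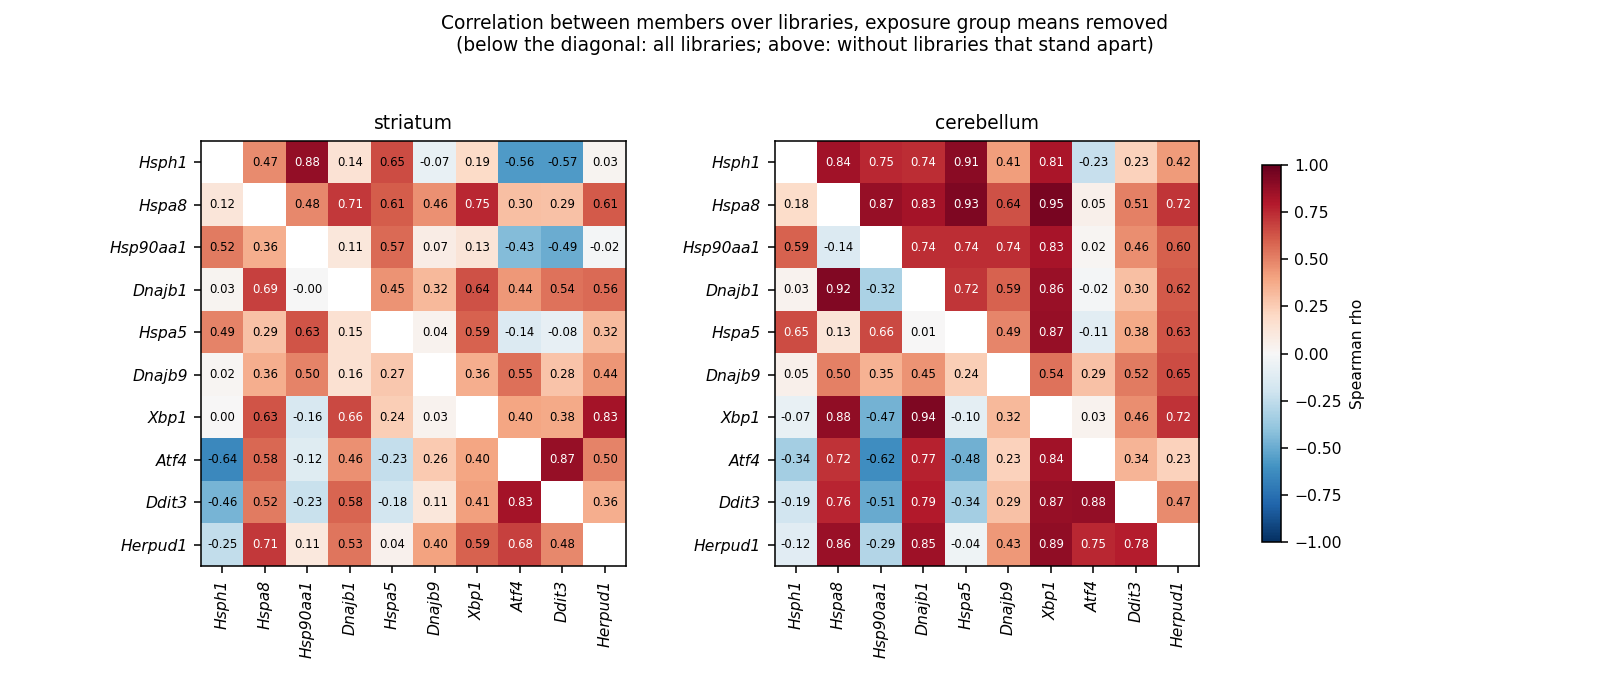
Spearman rho of the deviations from exposure group means for each pair of the 10 genes, striatum and cerebellum, with all libraries below the diagonal and without the libraries that stood apart above it. In the cerebellum above the diagonal the chaperones, Xbp1 and Herpud1 form a block of high rho, with a top value of 0.95, that Atf4 does not join. Run means were not removed here.

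Ribosomal protein transcripts moved with some of these genes even among the libraries that did not stand apart. In the striatum, the rho with the mean of ribosomal protein genes was 0.71 for Atf4 and 0.68 for Ddit3 (r of 0.82 and 0.75), and -0.77 for Hsph1 and -0.75 for Hsp90aa1 (r of -0.85 and -0.75). Permutation p values were 0.0006 or lower, and 0.006 or lower after adjustment over the 60 such relations of a region. Without the 2 farthest libraries r was 0.62, 0.55, -0.75 and -0.76. In the cerebellum Atf4 alone passed for rho (rho 0.71, r 0.84, permutation p = 0.00105 and 0.00026, adjusted p = 0.013 for rho, r = 0.63 without the 2 farthest). With run means removed, rho in this cerebellar set was 0.65 for Dnajb1, 0.63 for Hspa8, 0.61 for Hsp90aa1, 0.60 for Xbp1 and 0.59 for Herpud1 (unadjusted permutation p from 0.0032 to 0.0065). It was 0.49 for Dnajb9 and 0.48 for Ddit3 (unadjusted permutation p = 0.027 and 0.030). Hspa5 had 0.30 and Hsph1 0.012 (unadjusted permutation p = 0.22 and 0.96). These p values were not adjusted, and the share over all genes was not counted. Atf4 again had 0.71 with run means removed. In the striatum the 4 values were then 0.79 for Atf4, 0.74 for Ddit3, -0.74 for Hsph1 and -0.60 for Hsp90aa1. What part ribosomal transcripts had in the correlations among the cerebellar genes, or in the correlation of Atf4 with Ddit3 was not tested.

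Transcripts of the cold-inducible RNA-binding proteins Cirbp and Rbm3 are known to rise as temperature falls. The mean of the pair ran opposite to part of these genes, most often in the cerebellum once libraries that stood apart were left out. Among the 21 cerebellar libraries that did not stand apart, 7 of the 10 genes had a rho of -0.5 or lower with the mean of the pair, against 5.52% of all genes. The rho was -0.82 for Dnajb1, -0.79 for Xbp1, -0.75 for Hspa8 and -0.73 for Hspa5, with r between -0.80 and -0.76 and permutation p values of 0.00028 or lower (0.0042 or lower after adjustment over the 60 relations). Without the 2 farthest libraries r lay between -0.81 and -0.75. Atf4 (0.10) and Ddit3 (-0.07) showed no such relation at this number of libraries.

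With the run means removed, those 4 values were -0.51, -0.58, -0.55 and -0.54, with unadjusted permutation p = 0.031, 0.0086, 0.016 and 0.021. In the striatum 4 of 10 genes had a rho of -0.5 or lower, against 3.01% of all genes, led by Hspa5 (rho -0.78, r -0.83, permutation p = 0.00025 and 0.00019, r = -0.71 without the 2 farthest, rho -0.75 with run means removed). Over all libraries the counts were 3 of 10 (7.55% of genes) in the cerebellum and 1 of 10 (5.78%) in the striatum. Over all 31 cerebellar libraries the rho was -0.63 for Hspa5, but 0.09 for Dnajb1, 0.23 for Xbp1 and -0.044 for Hspa8. Cirbp and Rbm3 differed there, with a rho of -0.26 and 0.24 with the mean of Hspa5, Dnajb9, Xbp1 and Herpud1. With the mean of the cytosolic chaperones they had -0.70 and -0.34. In the striatum they were closer, with -0.18 and -0.14 for the ER mean and -0.33 and -0.30 for the cytosolic mean. Each alone is not given without the libraries that stood apart. Neither Cirbp nor Rbm3 passed at any loading in either region.

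The levels of some of these genes in one region went with their levels in the other region of the same animal. Over 29 animals Xbp1 had a rho of 0.72 between its striatal and cerebellar deviations, with an r of 0.70 (permutation p = 0.00019 and 0.00026, r = 0.67 without the 2 farthest animals). Hspa5 had 0.64 and 0.61 (permutation p = 0.00075 and 0.0023, r = 0.77 without the 2 farthest). Herpud1 had 0.53 and 0.51 (permutation p = 0.0072 and 0.015), but r was 0.33 without the 2 farthest, so this relation leans on those animals.

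Such agreement was widespread. Of 11658 genes measured in both regions, 34.3% passed with permutation p adjusted over all genes, and the median rho was 0.350. Xbp1 (adjusted p = 0.0047), Hspa5 (0.0072) and Herpud1 (0.028) passed, 3 of 10, which is near the background, and Xbp1 ranked at the 95.7 percentile of rho. Dnajb9 had a rho of -0.13, at the 5.97 percentile.

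In the 16 animals with neither library standing apart, the median rho of all genes was 0.109 and 0% of genes passed. There Hspa5 had a rho of 0.79 (r 0.84, permutation p = 0.0027 and 0.0015, 99.6 percentile) and Xbp1 0.71 (98.8 percentile), followed by Hspa8, Herpud1 and Dnajb1 with 0.64, 0.64 and 0.61. The p of Hspa5 adjusted over all genes was 0.443. With run means removed over 29 animals, Xbp1 had 0.69, Herpud1 0.50 and Hspa5 0.47 (unadjusted permutation p = 0.0001, 0.012 and 0.019). Of these only Xbp1 then passed when the 10 genes were adjusted together, and adjustment over all genes was not run.

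**Figure D5:**
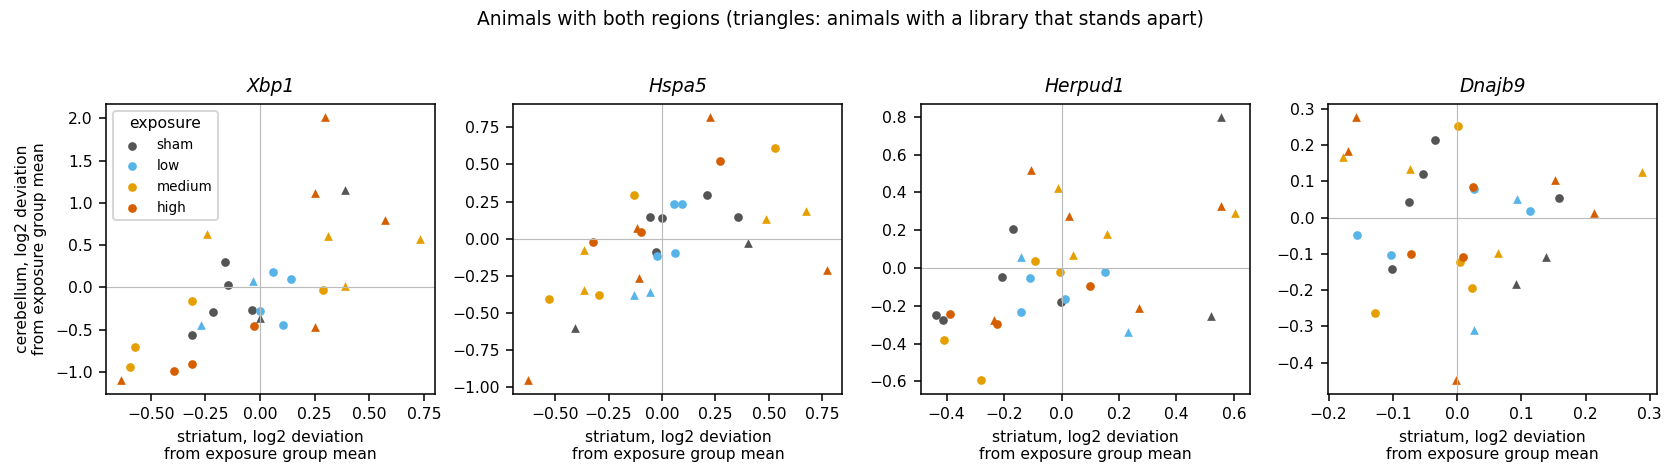
Striatal against cerebellar level of Xbp1, Hspa5, Herpud1 and Dnajb9 in the same animal, as deviations of log2 CPM from exposure group means (29 animals; triangles have a library that stood apart). Xbp1 (rho 0.72), Hspa5 (0.64) and Herpud1 (0.53) slope upward and Dnajb9 (-0.13) does not.

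The genes most like each group, by the Spearman correlation of a gene's deviations with the group's mean deviation over all libraries of a region, were as follows. With the 4 cytosolic chaperones, the striatal top 5 were Pdp1, a phosphatase of pyruvate dehydrogenase (0.85), Dnaja1, another J-domain partner of Hsp70 (0.82), Rcan2, a calcineurin regulator (0.81), the mitochondrial chaperonin Hspd1 (0.73) and Hsp90ab1 (0.72). The cerebellar top 5 were Dnaja1 (0.91), the Hsp70-Hsp90 adaptor Stip1 (0.85), Hspd1 (0.78), Ndel1 (0.74) and Vps41 (0.70). With Hspa5, Dnajb9, Xbp1 and Herpud1, the striatal top 5 held ER chaperones and folding enzymes Calr (0.84), Sdf2l1 (0.82), Pdia6 (0.81) and Creld2 (0.77). The remaining gene there was Cacybp (0.73). The cerebellar top 5 were Cept1, Rpn1 and Rab11a (0.90 each), and Cdc42ep4 and Tspan13 (0.89 each). With Atf4 and Ddit3, the cerebellum had Uqcrh, Cox6c, Mrpl12, Atp5pf and Cisd3 (0.99 each), mitochondrial genes. The striatum had Kcnk1 (0.92), Rell2 (0.91), Atg4d and Adap1 (0.90 each) and B3gat3 (0.88). All 31 cerebellar libraries entered this ranking, the 10 that stood apart included.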

How the data were processed

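The values analysed were whole-number read counts per gene, 1 deposited table per region, in 61 libraries. The submitters' processing notes name HISAT2, FastQC and rn6 without versions. Counting tool, annotation, strand setting and handling of multi-mapping reads were not given in the sources used here. Reads of near-identical copies of Hspa8, Hsp90aa1 and other members, or of overlapping genes, may therefore be split or shared in a way that cannot be seen. Per the labels' protocols, either poly(A) capture or rRNA depletion enriched the messenger RNA, and which library had which is not stated. Replicates are separate rats, as the labels number them.

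Counts were scaled by TMM and filtered with filterByExpr (12267 genes in the striatum, 11946 in the cerebellum, 12616 in the joint fit), then tested with the robust quasi-likelihood test of edgeR 4.0.16 (R 4.3.3), two-sided, with Benjamini-Hochberg adjustment over all genes and a threshold of 0.05. The standard error is the fold change divided by the root of F. Levels are TMM-scaled CPM, and log2 CPM has a prior count of 2. All 10 genes are given in each comparison. From the wider lists up to 4 genes per direction with the smallest p could be named, and the others were chosen after their values were seen. Alternatives were RLE factors, DESeq2 1.42.0, limma-voom with quality weights (limma 3.58.1), no filter, a mean CPM of at least 1, the run of 15 animal numbers as a block, the animal as a block, each library left out, libraries standing apart left out, and library means of ribosomal and neuron genes as covariates. Correlations used 100000 permutations within exposure groups. The values of wider-list genes without libraries standing apart, the removal of run means, the relations to list means and the counts over all genes beside the correlations were added after seeing the data. The members and lists were chosen with earlier results of these data known. The procedure was tested on simulated data for the high versus sham comparison. In the striatum it recovered 43.3% of genes changed 1.5-fold and 77.6% of those changed 2-fold. In the cerebellum it recovered 8.96% and 32.8%, so most changes of these sizes would be missed there.

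Libraries of the same number in both regions were taken as 1 animal, which the labels imply without saying. Deviations of the 29 pairs of libraries had a median correlation of 0.324 (-0.284 to 0.849), 21 above 0.1, and 4 libraries correlated best with their own number.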

Additional observations from a re-analysis of the deposited data

Results flagged for a closer look

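A library far from the others of its group was looked for in the CPM of each of the 10 genes in the 8 groups, 80 in all, by Dixon's gap test at its 95% value. Of these, 15 held such a library. Each library enters for all 10 genes and CPM was not put on a log scale. The 15 can therefore not be set against the 1 in 20 that chance gives a single test. Of the 15, 14 fell on libraries that stood apart in ribosomal protein or neuron transcripts, which were 8 of 30 striatal and 10 of 31 cerebellar libraries. In 13 of the 15 the library was the highest of its group.

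In sham cerebellum, the library of animal 48 was the lowest for the chaperones Hsph1 (80.9 CPM, next 147) and Hsp90aa1 (1718, next 3623). It was the highest for Xbp1 (262, next 145), Atf4 (432, next 253), Ddit3 (63.4) and Herpud1 (106, next 70.2). It also had the highest Dnajb1 of its group (95.1). Its ribosomal protein mean was 10.1 log2 CPM. Medium library 24 had the highest Atf4 (558, next 346), medium library 40 the highest Hsph1 (306, next 188) and high library 43 the highest Ddit3 (243, next 103) of their cerebellar groups.

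In the striatum the medium library of animal 41 was the highest for Hspa8 (3483 CPM, next 2372), Atf4 (171, next 123), Ddit3 (49.7, next 28.3) and Herpud1 (74.7, next 54.8). Low library 20 had the highest Atf4 (206, next 127). Low library 53, which did not stand apart, had the highest Dnajb1 (81.4, next 58.7).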

How the results depend on the processing

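For the 10 genes at single loadings, no alternative brought a gene past the threshold. In the cerebellar trend DESeq2 did so for Xbp1 (1.06), Atf4 (0.93) and Ddit3 (1.116), 3 genes of the 10, with 901 genes past the threshold against 0 with edgeR. So did leaving out any 1 of high libraries 13, 14, 27, 44 or 58 or sham library 48. Over all left-out libraries the count of the 10 genes ran from 0 to 3, that of all genes from 0 to 1635, and the trends from 0.52 to 1.19, 0.52 to 1.00 and 0.47 to 1.17. Signs of the trend turned with limma-voom (Xbp1 -0.0014, Atf4 -0.091) and without libraries standing apart (-0.066, -0.14, and -0.00012 for Ddit3). The high changes turned under the same settings (limma-voom -0.066, -0.099 and -0.020, without libraries standing apart -0.076, -0.14 and -0.054). With ribosomal and neuron covariates they were 0.08, 0.03 and 0.17. The interactions at the high loading turned with limma-voom (0.089, 0.021 and 0.031) and, without libraries standing apart, for Xbp1 (0.14) and Ddit3 (0.0041). The replicate block for the animal gave -0.46, -0.40 and -0.41.

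Genes past the threshold for any difference in the striatum (3) were 0 with DESeq2, limma-voom, the covariates, the run block and without libraries standing apart, 11 without a filter, 10 at a mean CPM of 1, and 0 to 6 with each library left out. In the cerebellum this count (0) was 163 with DESeq2, 1 with limma-voom and 0 to 3 with each library left out, and at the high loading DESeq2 gave 1. Interaction counts were 2 (low), 8 (medium) and 4 (high) with DESeq2. At the high loading (1) they were 0 with the animal block, with limma-voom and without libraries standing apart, 6 without a filter and 5 at a mean CPM of 1.

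Between sham regions the 2 genes became 5 with limma-voom (adding Dnajb9 -0.16, Ddit3 -0.33 and Herpud1 -0.37, with 9081 genes past the threshold), 3 without libraries standing apart (8434 genes), 3 with the replicate block and 2 to 3 with each library left out (5053 to 5711 genes). Hsp90aa1 turned to -0.055 with limma-voom and -0.076 without libraries standing apart, and ran from -0.067 to 0.085 with 1 library left out. Hspa5 turned to -0.079 and -0.076 there, ran from -0.052 to 0.089, and turned to -0.0029 without a filter. The animal block changed no other call.

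Pairs past the permutation test in the striatum were 19 over all libraries and 12 without those standing apart. With run means removed they were 15 and 10. Members past it within animals, adjusted over the 10, were 3 by Spearman, 6 by Pearson, 1 without libraries standing apart and 1 with run means removed. Of 97 other values of the 10 genes, 60 changed sign under some setting, the largest of these being 0.29, and 0 changed their call. The causes were not tested.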
